A study of Saccharomyces cerevisiae with 4 samples.

Results

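The genes described here are 40 nuclear genes of Saccharomyces cerevisiae that encode the subunits of the mitochondrial respiratory chain and of the ATP synthase. They were chosen by gene symbol in the array's annotation, each matched exactly 1 probe, and together they make up 40 of the 6388 gene probes on the array. They comprise 4 subunits of succinate dehydrogenase (SDH1 to SDH4), 9 of complex III, 9 of complex IV, the 2 isoforms of cytochrome c, 13 subunits of the ATP synthase and 3 NADH dehydrogenases. Levels were compared between cells grown in low phosphate (0.075 mM) and cells grown in standard phosphate (10 mM).

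All cells were wild-type BY4742, an alpha-mating haploid strain used widely in the laboratory, carrying the plasmid YCpLac111, and were harvested from synthetic complete medium with glucose. Each condition was hybridized on 2 arrays with a pair of colours, named a and b, against a common reference made from wild-type BY4742 RNA. The sample carried Cy3 and the reference Cy5 on the a arrays and the reverse on the b arrays, so that letter, dye and culture cannot be told apart within a condition. Every value below is the log2 ratio of a sample over the common reference, or a difference between such ratios, which is written as low minus standard phosphate. The ratios compare each gene with itself and carry no information on the order of levels between genes. In such bulk RNA, a change in the mixture of cells and a change of RNA per cell cannot be told apart.

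The respiratory chain passes electrons from NADH and succinate through coenzyme Q, complex III and cytochrome c to complex IV, which reduces oxygen, and the ATP synthase uses the resulting proton gradient to make ATP. Saccharomyces cerevisiae has no proton-pumping complex I and instead uses single-subunit NADH dehydrogenases on the inner and outer faces of the inner membrane. Most subunits are encoded in the nucleus, and many of their genes are repressed by glucose and activated by heme through the Hap1 protein and the Hap2/3/4/5 complex.

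The arrays themselves differed in 1 respect that touches all results below. The SD of the log2 ratios over all gene probes was 0.599 on low phosphate array b, against 0.197 to 0.270 on the other 3 arrays, and the correlation over probes was 0.73 between the arrays of low phosphate and 0.66 between those of standard phosphate. Both arrays of each condition are therefore given apart for the main genes and for each complex. All 40 genes had a sample signal over 1.5 times background on all 4 arrays, as did 85.7% of all gene probes, and none had a nearly saturated spot. As a check of the strain's mating type, the alpha-specific genes STE3 and SAG1 had sample signals of at least 35.2 times background on all 4 arrays, whereas the a-specific genes MFA1 and STE2 were at most 3.27 times background. Of the marker genes inactivated in the strain, HIS3 gave 4.26 to 6.99 and LYS2 1.66 to 3.03 times background, whereas URA3 gave 1.02 to 1.32. LEU2, which the plasmid carries, gave 2.05 to 7.27 times background in the samples and 1.09 to 1.44 in the reference. Being above background therefore does not by itself separate the strain.

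All 40 genes had a higher mean ratio in low than in standard phosphate, a direction shared by 50% of all gene probes. The median difference of the 40 genes was 0.55, whereas the median of all gene probes was 0.00010 and the middle 50% of probes lay between -0.16 and 0.16. For 35 of the 40 genes both low phosphate arrays lay above both standard phosphate arrays, which held for 26.5% of all gene probes, and for none did they lie below, which held for 26.8%. Both the a pair of arrays and the b pair gave a positive difference for 38 genes, against 35.5% of probes. The 2 exceptions, NDE1 and ATP20, were below 0 in the b pair.

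The sizes were moderate and the arrays few. No gene passed an adjusted p of 0.05 in limma with Benjamini-Hochberg adjustment over all 6388 probes, where 0% of probes were called higher and 0.0157%, the single gene LEU1, lower. Adjusted p-values of the 40 genes ran between 0.420 and 0.863. At an unadjusted p under 0.05, 25 of the 40 genes were higher and none lower, against 6.34% of probes higher and 5.13% lower. Of these, 9 were also higher by more than 1.7-fold, against 1.6% of probes. The 9 were all 4 succinate dehydrogenase genes, CYT1, COR1, QCR2 and QCR8 of complex III, and the internal NADH dehydrogenase NDI1. The calls depended on single arrays. Without low phosphate array a, 30 of the 40 genes and 2030 of all probes were called at an adjusted p under 0.05, and without low phosphate array b only SDH2 among the 40 was called, with 96 probes in all. In these fits the lone low phosphate array is assumed to vary like the standard phosphate pair.

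**Figure D1:**
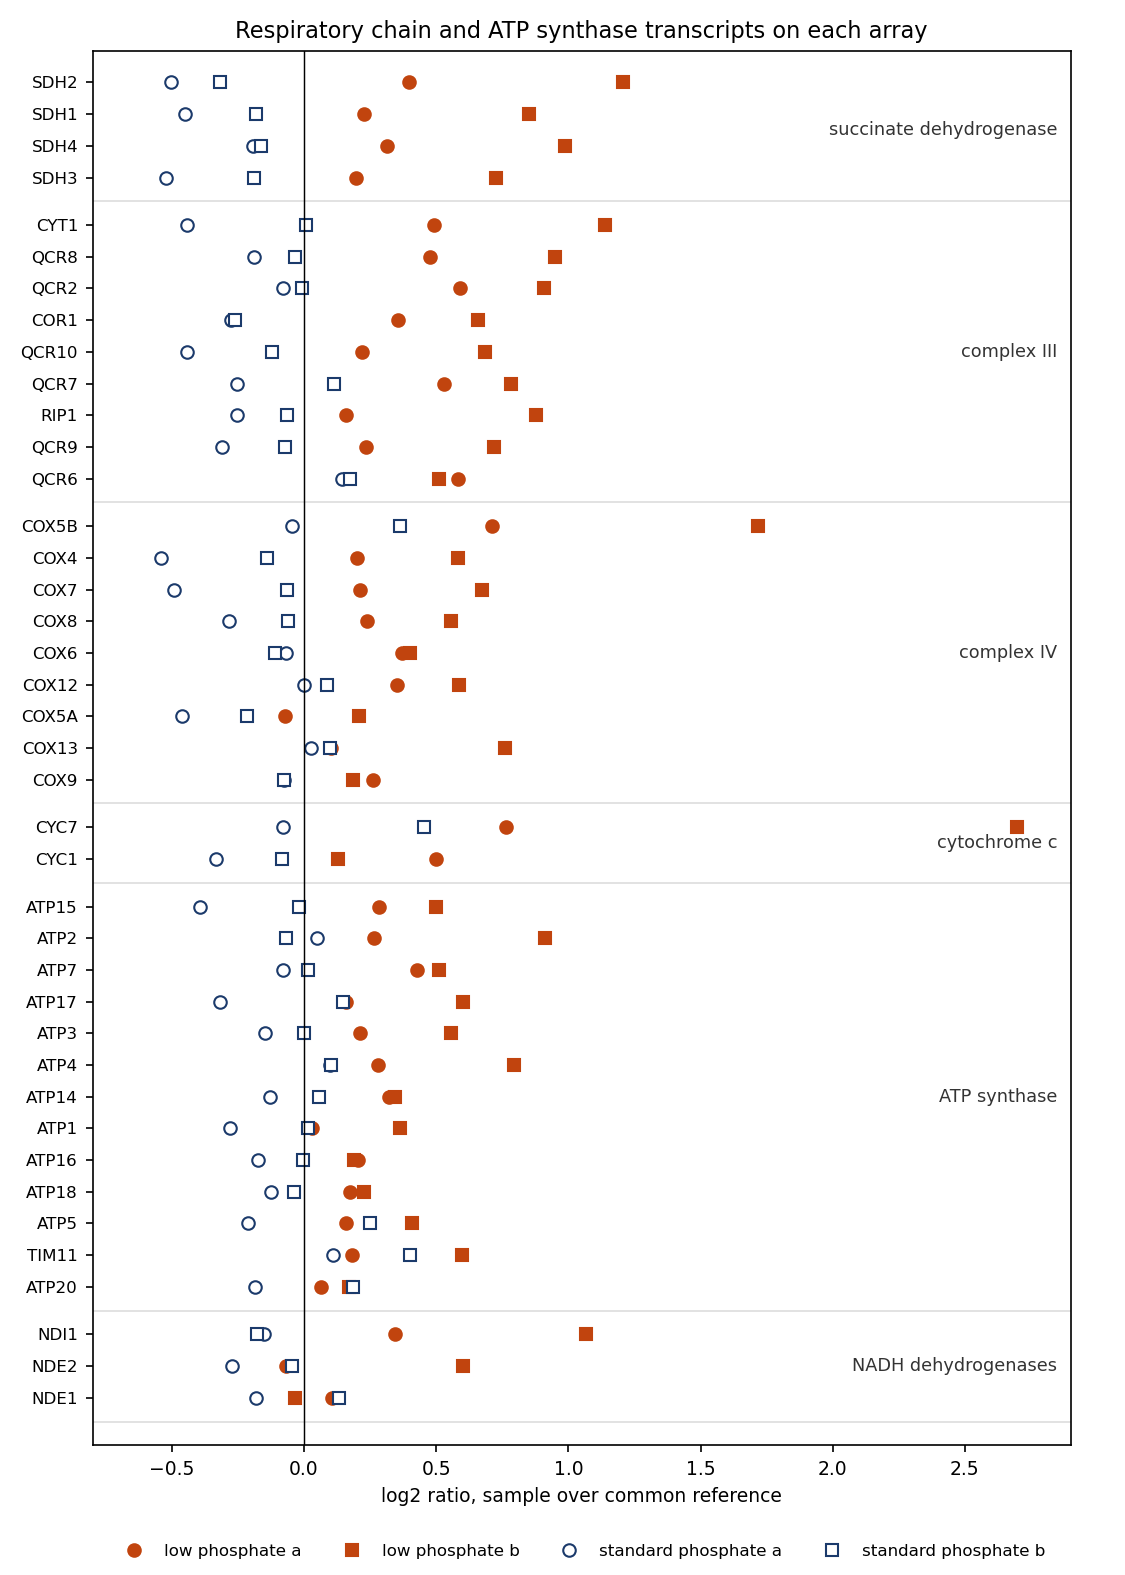
Log2 ratio of sample over common reference for each of the 40 genes, grouped by complex, with 1 mark per array (2 low phosphate, 2 standard phosphate). For 35 genes both low phosphate marks lie above both standard phosphate marks, and low phosphate array b is above low phosphate array a for 35 genes.

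Succinate dehydrogenase, which oxidises succinate in the citric acid cycle and passes the electrons to coenzyme Q, had the highest median difference among the complexes with more than 2 genes. The median ratio of its 4 genes was 0.27 and 0.92 on low phosphate arrays a and b, against -0.48 and -0.19 on standard phosphate arrays a and b, and the median difference was 0.84. Without low phosphate array b it was 0.55, below that of complex III, 0.59. The arrays did not overlap for any of the 4 genes, which held in this direction for 26.5% of all gene probes. Each gene exceeded 1.7-fold at an unadjusted p under 0.05, against 1.6% of probes higher.

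SDH2, the iron-sulfur subunit, had ratios of 0.40 and 1.21 in low phosphate and -0.50 and -0.32 in standard phosphate. Both low phosphate arrays were above both standard phosphate arrays, which lay close together. The difference was 1.21 with a standard error of 0.31, or 2.31-fold, with an unadjusted p of 0.017 in limma. SDH1, the flavoprotein that holds the active site, had ratios of 0.23 and 0.85 in low phosphate and -0.45 and -0.18 in standard phosphate, a difference of 0.86 ± 0.26 (SE). SDH3, a membrane anchor subunit, had ratios of 0.20 and 0.73 in low phosphate and -0.52 and -0.19 in standard phosphate, a difference of 0.82 ± 0.24 (SE). In SDH1 and SDH3, as in SDH2, array b was the higher of each condition. SDH4, the other anchor subunit, had ratios of 0.31 and 0.99 in low phosphate and -0.19 and -0.16 in standard phosphate, a difference of 0.83 ± 0.25 (SE). Its standard phosphate arrays were nearly equal, so that its spread came from the low phosphate arrays. The anchor paralogs SHH3 and SHH4 and the SDH1 paralog YJL045W were listed for comparison but had no probe with that symbol and were not analysed here.

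Complex III takes electrons from reduced coenzyme Q and passes them to cytochrome c. Its 9 nuclear genes had a median difference of 0.73. The arrays of all 9 were non-overlapping, which held in this direction for 26.5% of all gene probes. The median ratios were 0.48 and 0.78 on low phosphate arrays a and b, against -0.25 and -0.03 on standard phosphate arrays a and b. All 9 were higher in the a pair and in the b pair, against 35.5% of all gene probes, with median differences of 0.66 and 0.92. Of the 9, 8 had an unadjusted p under 0.05, against 6.34% of probes higher.

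Of the catalytic subunits, CYT1, which encodes cytochrome c1, had ratios of 0.49 and 1.14 in low phosphate and -0.44 and 0.01 in standard phosphate. The difference was 1.03 ± 0.29 (SE), or 2.05-fold, the highest of the complex, with an unadjusted p of 0.0243 in limma. RIP1, the Rieske iron-sulfur protein, had ratios of 0.16 and 0.88 in low phosphate and -0.25 and -0.06 in standard phosphate. Its arrays did not overlap, but those of low phosphate lay far apart. With a difference of 0.68 ± 0.28 (SE) and an unadjusted p of 0.0714 in limma it was the only gene of complex III that missed the unadjusted threshold.

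The core proteins COR1 and QCR2, which flank the complex on the matrix side, differed by nearly the same amount. COR1 had ratios of 0.36 and 0.66 in low phosphate and -0.28 and -0.26 in standard phosphate, a difference of 0.78 ± 0.14 (SE). QCR2 had ratios of 0.59 and 0.91 in low phosphate and -0.08 and -0.01 in standard phosphate, a difference of 0.79 ± 0.14 (SE). For both genes the low phosphate arrays lay closer together than those of the 4 succinate dehydrogenase genes, and the unadjusted p was 0.00477 for COR1 and 0.0052 for QCR2 in limma.

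The small subunits, which surround the catalytic ones, had a median difference of 0.73. Among them QCR8 had ratios of 0.48 and 0.95 in low phosphate and -0.19 and -0.03 in standard phosphate, a difference of 0.82 ± 0.20 (SE). QCR6, the acidic hinge protein, had the lowest difference of the complex, with ratios of 0.58 and 0.51 in low phosphate and 0.14 and 0.17 in standard phosphate, a difference of 0.39 ± 0.09 (SE). It was also the only gene of complex III that was above the reference on both standard phosphate arrays, and low phosphate array b was not the higher one. QCR7, QCR9 and QCR10 lay in between, with differences of 0.73, 0.67 and 0.73.

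Complex IV, cytochrome c oxidase, reduces oxygen to water. Its 9 nuclear genes are structural subunits around a core encoded in the mitochondrion, and had a median difference of 0.47, with 0.44 in the a pair and 0.62 in the b pair. The median ratios were 0.24 and 0.58 on low phosphate arrays a and b, against -0.08 and -0.06 on standard phosphate arrays a and b. The arrays of all 9 genes were non-overlapping, which held in this direction for 26.5% of all gene probes. Of the 9, 6 had an unadjusted p under 0.05, against 6.34% of probes higher, and none exceeded 1.7-fold at that p.

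COX4 and COX7 had the highest differences after COX5B, at 0.73 and 0.72, followed by COX8 at 0.57. COX6, which is needed for assembly of the complex, was the most even, with ratios of 0.37 and 0.40 in low phosphate and -0.07 and -0.11 in standard phosphate, a difference of 0.47 ± 0.09 (SE) with an unadjusted p of 0.00547 in limma. COX12 and COX13, subunits on the outside of the complex, differed by 0.43 and 0.37. COX13 rested on the b pair, with a difference of 0.66 there and 0.08 in the a pair. COX9 had the lowest difference of the complex, with ratios of 0.26 and 0.19 in low phosphate and -0.08 on both standard phosphate arrays, a difference of 0.30 ± 0.09 (SE).

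**Figure D2:**
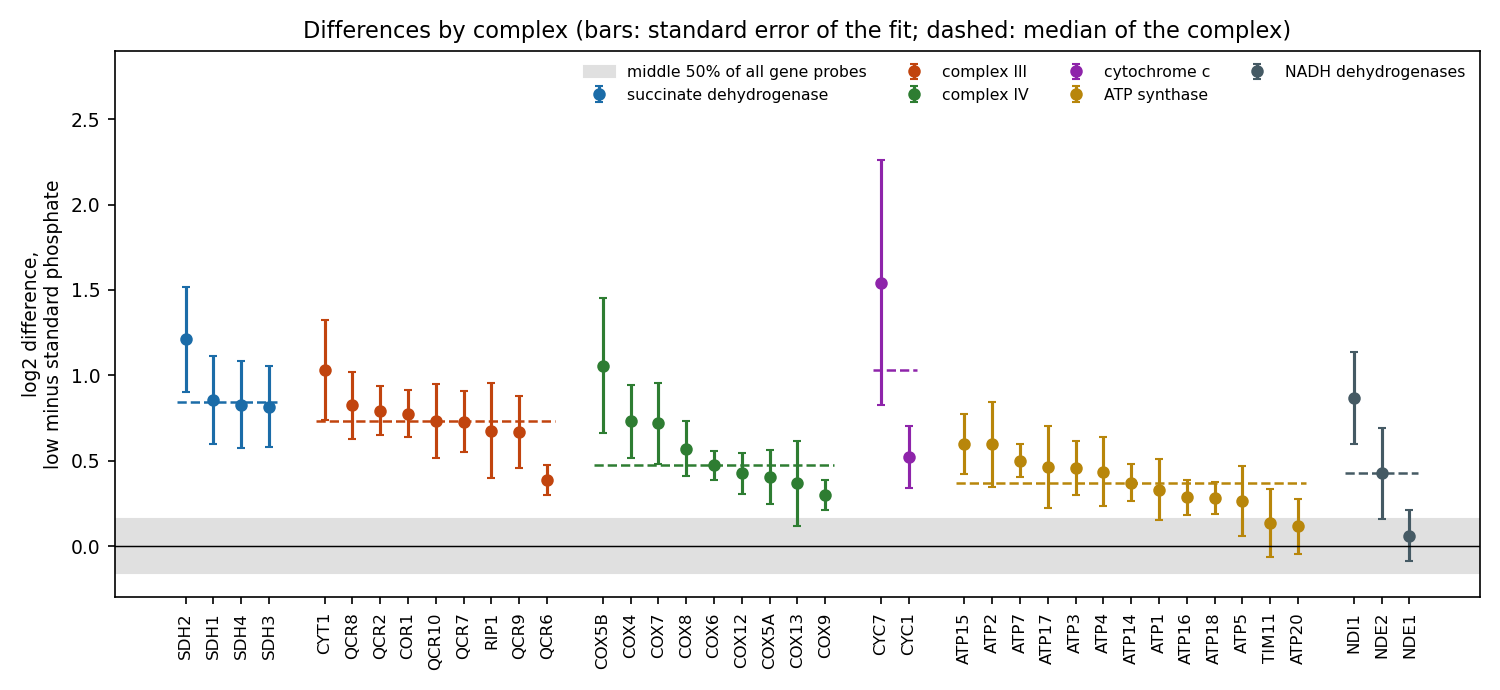
Log2 difference, low minus standard phosphate, for each of the 40 genes by complex, with the median of each complex marked beside the middle 50% of all gene probes. Medians were 0.84 for succinate dehydrogenase, 0.73 for complex III, 0.47 for complex IV and 0.37 for the ATP synthase, and 37 of the 40 genes lie above the upper quartile of all probes.

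The ATP synthase uses the proton gradient to make ATP in its F1 head, which is turned through a central stalk by the membrane part. Its 13 genes had a median difference of 0.37, the lowest of the complexes, and the a and b pairs gave almost the same median, 0.36 and 0.35. The median ratios were 0.20 and 0.50 on low phosphate arrays a and b, against -0.15 and 0.01 on standard phosphate arrays a and b. The arrays did not overlap for 10 of the 13 genes, which held in this direction for 26.5% of all gene probes. Of the 13, 5 had an unadjusted p under 0.05, against 6.34% of probes higher, and none exceeded 1.7-fold at that p.

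The highest difference was that of ATP15, the epsilon subunit of the central stalk, with ratios of 0.28 and 0.50 in low phosphate and -0.39 and -0.02 in standard phosphate, a difference of 0.60 ± 0.18 (SE). ATP2, the catalytic beta subunit, had the same difference of 0.60 but a larger error of 0.25, since its ratios were 0.26 and 0.91 in low phosphate against 0.05 and -0.07 in standard phosphate. ATP1, the alpha subunit, which alternates with beta in the head, differed by 0.33 ± 0.18 (SE). Its low phosphate array a, at 0.03, lay close to standard phosphate array b, at 0.01, without overlap. The other F1 subunits ATP3 (gamma) and ATP16 (delta) differed by 0.46 and 0.29.

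Among the genes of the peripheral stalk and membrane part, ATP7 had the smallest unadjusted p, 0.00626 in limma, with ratios of 0.43 and 0.51 in low phosphate and -0.08 and 0.01 in standard phosphate. ATP4 and ATP14, also of the peripheral stalk, differed by 0.44 and 0.37, and the membrane subunits ATP17 and ATP18 by 0.46 and 0.28. ATP5, which joins the stalk to the head, had overlapping arrays and a difference of 0.26. The 2 genes with the lowest differences in the complex, ATP20 and TIM11, encode subunits g and e, which are known for holding ATP synthase dimers together. ATP20 had ratios of 0.06 and 0.17 in low phosphate and -0.19 and 0.19 in standard phosphate, a difference of 0.12 ± 0.16 (SE). TIM11 had ratios of 0.18 and 0.60 in low phosphate and 0.11 and 0.40 in standard phosphate, a difference of 0.13 ± 0.20 (SE). The arrays of both genes overlapped and the differences were below their errors, and both were below 0 in some fits, TIM11 after scaling between arrays and without low phosphate array b, and both genes without standard phosphate array a.

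The 3 NADH dehydrogenases did not behave alike in size. NDI1, which oxidises NADH of the mitochondrial matrix, had ratios of 0.34 and 1.07 in low phosphate and -0.15 and -0.18 in standard phosphate. The arrays did not overlap, and the difference was 0.87 ± 0.27 (SE), or 1.83-fold, with an unadjusted p of 0.0323 in limma. NDE1, an external enzyme that oxidises cytosolic NADH, had ratios of 0.11 and -0.03 in low phosphate and -0.18 and 0.13 in standard phosphate, and its difference of 0.06 ± 0.15 (SE) was the lowest of the 40 genes. It was 0.29 in the a pair and -0.17 in the b pair, and below 0 without low phosphate array a or without standard phosphate array a. NDE2, the other external enzyme, had ratios of -0.07 and 0.60 in low phosphate and -0.27 and -0.05 in standard phosphate, a difference of 0.43 ± 0.27 (SE), with overlapping arrays. Its probe was the dimmest of the 40, with a sample signal as low as 1.81 times background on 1 array. With correction for background without an offset, the median of these 3 genes was 0.68 in place of 0.43.

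Of the paralogs, cytochrome c is encoded by CYC1, the main aerobic isoform, and CYC7, known as the isoform favoured when oxygen is low and in stress. CYC1 had ratios of 0.50 and 0.13 in low phosphate and -0.33 and -0.08 in standard phosphate, a difference of 0.52 ± 0.18 (SE). CYC7 had ratios of 0.76 and 2.70 in low phosphate and -0.08 and 0.45 in standard phosphate. Its difference of 1.54 ± 0.72 (SE), or 2.91-fold, was the highest of the 40 genes, and the distance between its low phosphate arrays was larger than the difference itself. The unadjusted p was 0.0981 for CYC7 and 0.0441 for CYC1 in limma.

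The isoforms were then compared within each array. CYC7 minus CYC1 was 0.26 and 2.57 in low phosphate and 0.25 and 0.54 in standard phosphate. Low phosphate array a lay between the standard phosphate arrays, and the difference between conditions of 1.02 came from the b pair, 2.03, with 0.0089 in the a pair. Without low phosphate array b it was -0.13, and after scaling between arrays 0.36. COX5A and COX5B encode alternative forms of subunit V of complex IV, of which COX5B is known as the form made when oxygen is low. COX5A had ratios of -0.07 and 0.21 in low phosphate and -0.46 and -0.22 in standard phosphate, a difference of 0.41 ± 0.16 (SE), and COX5B had ratios of 0.71 and 1.72 in low phosphate and -0.05 and 0.36 in standard phosphate, a difference of 1.06 ± 0.39 (SE). Both low phosphate arrays were higher than both standard phosphate arrays for each of the pair.

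COX5B minus COX5A was 0.78 and 1.51 in low phosphate and 0.41 and 0.58 in standard phosphate, and here the arrays did not overlap and both the a pair, 0.37, and the b pair, 0.93, were above 0. The difference between conditions was 0.65, and it was 0.29 without low phosphate array b and 0.26 after scaling between arrays. NDE2 minus NDE1 was -0.18 and 0.64 in low phosphate and -0.09 and -0.18 in standard phosphate, with -0.08 in the a pair and 0.81 in the b pair. In an exact two-sided permutation test over the arrays, p was 0.333 for the COX5 pair and 0.667 for the CYC and NDE pairs, and 0.667 for each after Benjamini-Hochberg adjustment over the 3 pairs. With 2 arrays against 2 the smallest p that this test can give is 0.333.

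**Figure D3:**
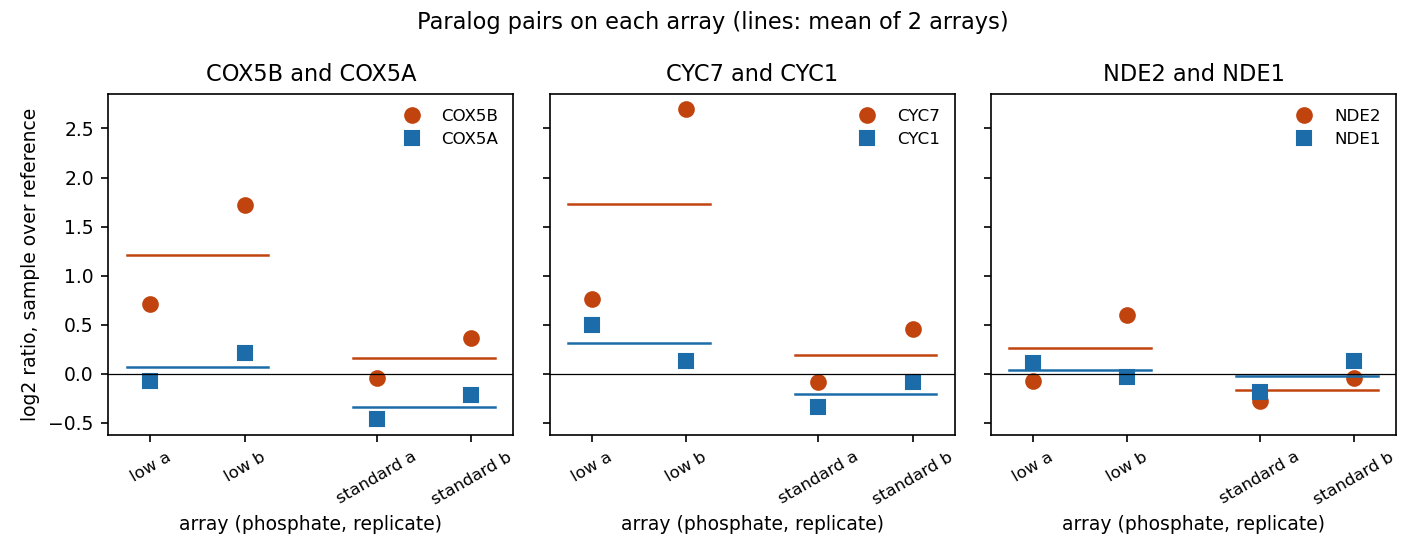
Log2 ratios of the paralogs CYC7 and CYC1, COX5B and COX5A, and NDE2 and NDE1 on each array, low phosphate left of standard phosphate. CYC7 is at 0.76 and 2.70 on low phosphate arrays a and b and COX5B at 0.71 and 1.72, and both genes are above their standard phosphate values on both arrays.

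Low phosphate array b was above low phosphate array a for 35 of the 40 genes, whereas this held for 51.1% of all gene probes. In standard phosphate, array b was above array a for 37 of the 40 genes and for 53.1% of all gene probes. The median of array b minus array a over the 40 genes was 0.36 in low phosphate and 0.22 in standard phosphate. Because both conditions had their higher values on the b array, the difference within a pair of the same letter was less uneven than the single arrays. The median difference of the 40 genes was 0.49 in the a pair and 0.65 in the b pair, and the b pair was the larger for 26 genes, against 49.7% of probes. CYC1 was a clear exception, with 0.83 in the a pair and 0.21 in the b pair.

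Genes of the general stress response were likewise highest on low phosphate array b. All 18 genes of a stress list, which included HSP26, HSP104 and CTT1, had a higher mean in low phosphate. Of the 18, 16 were non-overlapping, which held in this direction for 26.5% of all gene probes. HSP12 was the only gene of the list that was lower in a pair, with -1.16 in the a pair and 1.65 in the b pair. Their median ratio was 0.99 and 2.81 on low phosphate arrays a and b, against -0.15 and 0.45 on standard phosphate arrays a and b. The median difference of the stress list was 1.08 in the a pair and 2.22 in the b pair. Their part in the values of the respiratory genes was not tested.

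**Figure D4:**
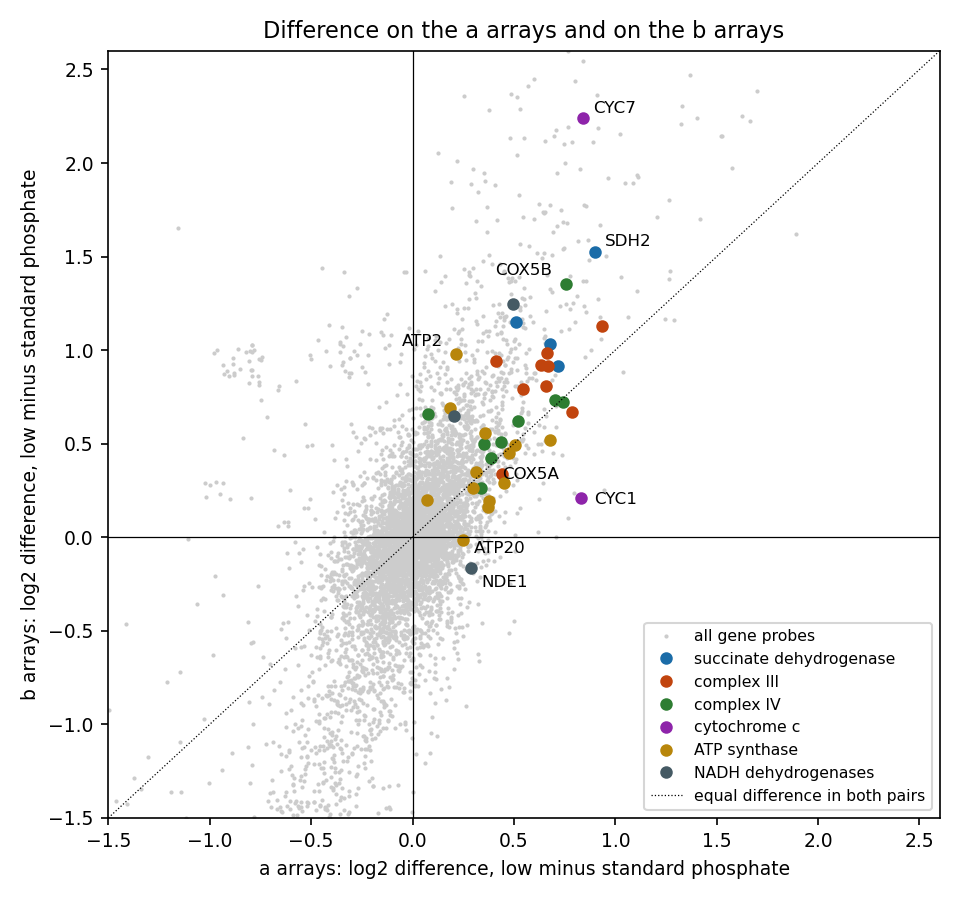
Log2 difference, low minus standard phosphate, in the a pair of arrays (horizontal) and in the b pair (vertical) for the 40 genes by complex and, in the background, all gene probes. The axes run between -1.5 and 2.6, which leaves 91 probes outside, and 38 of the 40 genes are above 0 on both axes.

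Other genes of respiration were set beside the subunits. The subunit ATP19 of the ATP synthase and the 3 proteins that inhibit its ATP hydrolysis or stabilise the inhibitor were all higher in mean. Their arrays did not overlap, which held in this direction for 26.5% of all gene probes. INH1, which encodes the inhibitor itself, had ratios of 0.85 and 1.24 in low phosphate and -0.39 and 0.07 in standard phosphate. The difference was 1.21 ± 0.23 (SE), or 2.31-fold, with 1.24 in the a pair and 1.17 in the b pair, and an unadjusted p of 0.00621 in limma. STF1, a relative of INH1, had ratios of 1.01 and 2.18 in low phosphate and -0.10 and 0.25 in standard phosphate, a difference of 1.52 ± 0.44 (SE). STF2 differed by 1.82 ± 0.69 (SE), while ATP19 differed by 0.34, close to the subunits it is assembled with. The median of the 3 inhibitor genes was 1.52, above that of the 13 ATP synthase genes, 0.37, and the 2 groups were not compared by a test.

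The enzymes that feed electrons into the chain from other substrates or belong to related mitochondrial redox steps were also higher in mean. All 6 of them had non-overlapping arrays, which held in this direction for 26.5% of all gene probes. Their median difference was 0.78, but the median was 0.19 in the a pair and 1.16 in the b pair. GUT2, the mitochondrial glycerol-3-phosphate dehydrogenase, differed by 0.84, with 0.25 in the a pair and 1.43 in the b pair. ETR1, a reductase of mitochondrial fatty acid synthesis, had ratios of 0.49 and 1.19 in low phosphate and -0.11 and 0.04 in standard phosphate, a difference of 0.87 ± 0.27 (SE), and was the only one of the 6 past 1.7-fold at an unadjusted p under 0.05. The lowest was DLD2, a lactate dehydrogenase, at 0.15. Of the 9 measured genes of coenzyme Q synthesis, 8 had a higher mean, against 50% of all gene probes. The median of the 9 was 0.30, with 0.17 in the a pair and 0.43 in the b pair. At an unadjusted p under 0.05, 1 of them was higher, against 6.34% of probes. The highest was COQ4 at 0.73 and the lowest COQ8 at -0.10.

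Among carriers of the mitochondrial membranes, the 2 phosphate carriers differed in size. PIC2, the minor phosphate carrier, had ratios of 1.03 and 2.26 in low phosphate and -0.02 and 0.36 in standard phosphate, a difference of 1.47 ± 0.46 (SE). MIR1, the main phosphate carrier, which supplies the phosphate for ATP synthesis, had ratios of 0.14 and 0.05 in low phosphate and 0.04 and -0.09 in standard phosphate, a difference of 0.12 ± 0.10 (SE). The arrays of PIC2 did not overlap between conditions. Its low phosphate arrays lay 1.23 apart, further than low phosphate array a lay from standard phosphate array b. The arrays of MIR1 were within a narrow range. DIC1, the dicarboxylate carrier, which exchanges dicarboxylates for phosphate, had the lower mean in low phosphate, with ratios of -0.54 and -0.24 in low phosphate and 0.96 and 0.68 in standard phosphate. Its difference was -1.21 ± 0.17 (SE), with an unadjusted p of 0.00195 and an adjusted p of 0.39 in limma. The outer membrane channel POR1 and the ADP/ATP carrier PET9 differed by 0.84 and 0.30.

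**Figure D5:**
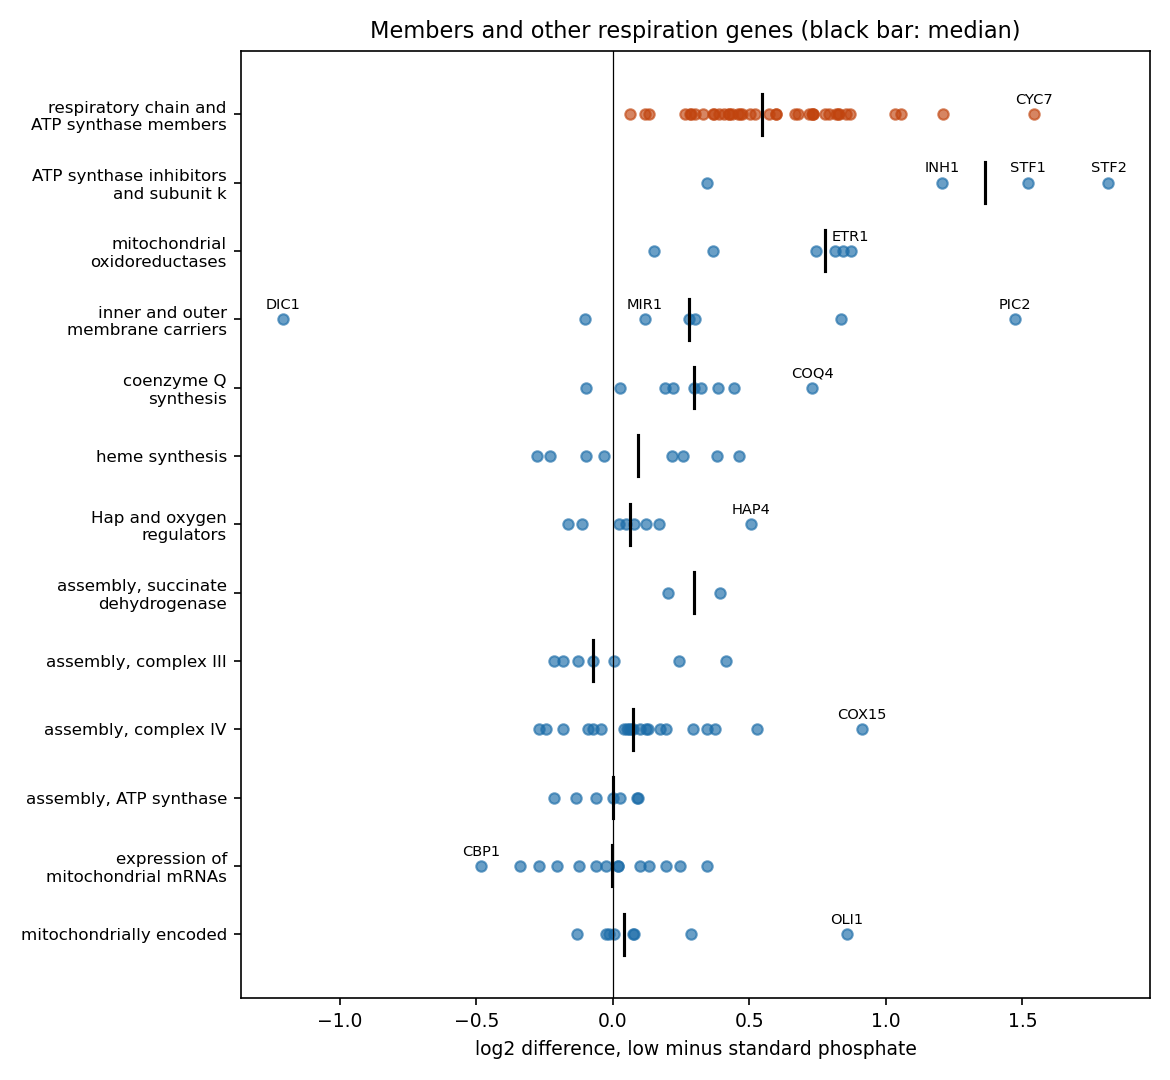
Log2 difference, low minus standard phosphate, for the 40 subunit genes and for the lists of related genes, each point a gene and each bar a median. The inhibitors of the ATP synthase and PIC2 lie above the subunit median of 0.55, DIC1 lies at -1.21, and the assembly factors and activators lie on both sides of 0.

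Factors that assemble the complexes or help express their mitochondrial subunits had no common direction. Of 51 such genes measured, 31 had a higher and 20 a lower mean, with a median difference of 0.04. The arrays were non-overlapping for 14 higher and 13 lower genes, against 26.5% and 26.8% of all gene probes. At an unadjusted p under 0.05 none was higher and 3 were lower, against 6.34% and 5.13% of all gene probes. The 3 were COX11, a copper chaperone for complex IV, CBP1, which protects the COB messenger, and NCA3. The highest was COX15, an enzyme of heme A synthesis, at 0.91 ± 0.41 (SE), and the lowest CBP1, with ratios of -0.22 and -0.46 in low phosphate and 0.11 and 0.18 in standard phosphate and a difference of -0.48 ± 0.12 (SE).

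Among the regulators, HAP4, the activating subunit of the Hap complex, had ratios of 0.12 and 0.59 in low phosphate and -0.10 and -0.21 in standard phosphate. Its arrays did not overlap, and the difference was 0.51 ± 0.19 (SE) with an unadjusted p of 0.0572 in limma. The median of the 8 regulators was 0.06, with MOT3 lowest at -0.16. The 8 genes of heme synthesis had a median of 0.09, between -0.28 for HEM3 and 0.46 for HEM14. Of 11 genes known for expression at low oxygen, 7 had a higher mean, all of them non-overlapping, against 26.5% of all gene probes. The other 4 had a lower mean, and 1 of them, TIR4, was non-overlapping, against 26.8% of probes. The median of the 11 genes was 0.25, with TIR1 highest at 0.56 and OLE1 lowest at -0.19.

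The 8 measured mitochondrially encoded genes had a median difference of 0.04. OLI1, which encodes the ring subunit of the ATP synthase, was the highest, with ratios of 0.91 and 1.16 in low phosphate and 0.27 and 0.10 in standard phosphate and a difference of 0.86 ± 0.14 (SE). Of the 8 probes, only those of OLI1 and ATP8 had a sample signal over 1.5 times background on all 4 arrays, and those of COX3 and COB had it on none.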

How the data were processed

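The deposited scanner files hold spot intensity and local background intensity in both channels, which the authors read with Imagene and did not normalize. The deposited series table gives a log2 ratio for each spot, which the authors made by print-tip loess without background subtraction and corrected for dye bias, per the deposited protocol text; it served as an alternative. A further table holds only the authors' own comparisons (a log2 value and a p-value per condition, made with limma 2.12.0 per the labels) and was not used. The submitters' text gives the sample Cy5 on the first hybridization, but the labels give it Cy3 on the a arrays. The correlation of the deposited ratios with log2 Cy5 over Cy3 (-0.91 and 0.94 in low phosphate, -0.65 and 0.68 in standard phosphate, a and b) fits the labels, which were followed.

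Intensities were corrected with normexp (offset 50) and then normalized per array with a loess curve fitted to gene spots (limma 3.58.1, R 4.3.3). The a arrays were turned so that the sample is on top, and the 2 spots of each probe were averaged (correlation between them 0.967 to 0.998). A mean per condition was fitted with lmFit and eBayes on all 4 arrays (2 residual degrees of freedom), two-sided, with Benjamini-Hochberg adjustment over 6388 gene probes. Paralogs were compared by an exact permutation test. Scripts were tested on simulated data. Median sample signals were 310 and 322 in low phosphate and 383 and 254 in standard phosphate, over a background of 41 to 49, and 2 arrays per condition limit the precision. The submitters describe independent cultures. By the study's methods, a biological replicate was measured again with swapped dyes as a technical repeat, and the titles give both arrays of a condition the same number and differ in the letter. If the arrays of a condition are such a repeat of 1 culture, the p-values measure technical spread only.

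Symbols came from the array's platform annotation, which gives 1 symbol for 5326 probes. All 40 genes are described. Values per array are given for paralogs, for the highest and lowest gene of each complex and for those past 1.7-fold at an unadjusted p under 0.05, and further genes were added after their values were seen. Of 149 entries in 18 lists of related genes and markers, 144 matched a probe. Genes and lists were chosen with earlier results of these data known. The grouping into subunit roles was made after values were seen. Alternatives were other background corrections, within-array and between-array normalizations, the deposited ratios, a filter on dim probes, a replicate block, trend and robust eBayes, and leaving out each array.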

Additional observations from a re-analysis of the deposited data

How the results depend on the processing

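The median difference of the 40 genes stayed between 0.47 and 0.61 over the other settings and between 0.42 and 0.72 when each array was left out, and 37 to 40 genes kept a higher mean in low phosphate. Of all probes, 1 was called (LEU1), and 0 with a normexp offset of 0, print-tip loess, spike-in loess, centring on the median, the deposited ratios, the replicate block, or trend and robust eBayes, 3 after scaling between arrays, and 0 to 2030 with an array left out. Among the 40 genes 0 to 30 were called with an array left out. Genes past 1.7-fold at an unadjusted p under 0.05 numbered 5 in place of 9 with print-tip loess, spike-in loess and the deposited ratios, 3 after scaling, and 1 to 18 with an array left out. Over all probes this count was 196 (102 higher) against 298 (80 higher) with spike-in loess, and between 64 and 936 over all settings. Genes with non-overlapping arrays numbered 22 in place of 35 with spike-in loess. The NADH dehydrogenase median was 0.68 with an offset of 0 and 0.13 to 0.76 with an array left out, while with an array left out that of complex III was 0.58 to 0.95, complex IV 0.41 to 0.70, succinate dehydrogenase 0.55 to 1.17, cytochrome c 0.64 to 1.42 and the ATP synthase 0.24 to 0.50. COX5B minus COX5A was 0.26 after scaling and 0.29 to 1.01 with an array left out, and CYC7 minus CYC1 was 0.36 after scaling. Signs turned for 5 differences. NDE1 ran between -0.0953 and 0.217 with an array left out, below 0 without low phosphate a (-0.0093) or standard phosphate a. ATP20 ran between -0.0699 and 0.303, below 0 without standard phosphate a. TIM11 was -0.0761 after scaling and ran between -0.0740 and 0.341, below 0 without array b of low phosphate and without array a of standard phosphate (-0.0114). CYC7 minus CYC1 ran between -0.133 and 2.17 and NDE2 minus NDE1 between -0.0413 and 0.771, both below 0 without low phosphate b. The causes were not tested.

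Arrays of the same letter share the dye orientation and no stated culture, and the correlation of the deviations of same-letter arrays was 0.28. With the letter as a replicate block, 11 of the 40 genes were past 1.7-fold at an unadjusted p under 0.05, including the 9, and 0 were called. Over all 6388 probes this count also rose, to 334 (169 higher) with the block against 196 (102 higher) without it. Without the block none of the 40 genes was called either, with 2 arrays per condition. The differences of NDE1, ATP20 and TIM11 were also below their standard errors.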
